A study of Mus musculus with 16 samples.

Results

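The interstitial fibroblast and matrix genes are 35 of the 28971 genes counted in whole-kidney RNA of mice with Hes1 deleted in the tubule epithelium and of control littermates. They were taken by name and not by measured values: 34 stood in the count table under the same symbol, and Ccn2 was found by its Ensembl identifier under the older symbol Ctgf. They comprise 10 collagen chains, 3 receptor and surface genes, 5 genes of the contractile apparatus and intermediate filaments, 4 leucine-rich proteoglycans, 6 matrix glycoproteins, 5 matrix enzymes and inhibitors, and 2 growth signals.

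Hes1 is a transcriptional repressor that Notch receptors switch on, and the series compared kidney RNA with and without it. The conditional knockout animals, called Hes1 cKO, carried Pax8-rtTA, TRE-Cre and a pair of floxed Hes1 alleles, and the control animals were labelled as wild type littermates; which transgenes the latter carried is not stated in the labels. Animals of both groups drank doxycycline at 1 mg/mL in water with 5% sucrose for 1 week from 3 weeks of age, and RNA of whole kidneys was read as 150 bp pairs. The titles name 7 Hes1 cKO and 9 control samples, while the design text gives these sizes the other way round, and the titles were followed. Of these 16 samples, 3 Hes1 cKO and 4 control libraries could be assigned to a group and were used, and the numbers Hes1 cKO 1 to 3 and control 1 to 4 only name columns of the table. Where values are listed by library they stand in that order. The Pax8 promoter is active in kidney tubule epithelium, so that doxycycline switches on Cre there, and the interstitial cells that make most of the matrix are not part of it.

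Interstitial fibroblasts fill the space between the tubules and secrete fibrillar collagens, proteoglycans and glycoproteins, and pericytes and vascular smooth muscle cells wrap the vessels with a contractile coat. Platelet-derived growth factors act on these cells through Pdgfra and Pdgfrb, and transforming growth factor beta is the best known signal that turns fibroblasts into matrix-secreting myofibroblasts. In kidney fibrosis collagen genes, Acta2, Fn1, Postn and Timp1 are commonly read as marks of this change.

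None of the fibroblast and matrix genes was called as different between Hes1 cKO and control kidneys. Of the 35, 33 had counts high enough to be tested, and Tagln and Timp1 did not. The comparison used the quasi-likelihood test of edgeR, adjusted over all genes by the Benjamini-Hochberg method, and a gene is called at an adjusted p under 0.05. That test called 0 of 33 members against 0.339% of all tested genes, and the smallest adjusted p among the members was 0.717, for Fmod. At an unadjusted p under 0.05 stood 1 of 33 (Fmod, 3.03%) against 5.95% of all genes. In 0 of 33 members did the ranges of the groups fail to overlap, against 7.01% of all genes. DESeq2's Wald test also called 0 members, while a fit with the Xist level as a covariate and a fit without 3 libraries rich in adrenal transcripts each called 1, Fmod.

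The differences were small, on balance without direction, and known to different precision. Log2 fold changes, given throughout as Hes1 cKO over control, were above 0 for 18 members and below 0 for 15. Their median was 0.01, against -0.0064 over all tested genes, and 30 of 33 were under 0.3 in size. The 95% interval lay within a 2-fold change in either direction for 29 members and within a 1.5-fold change for 10. The median standard error was 0.22 for the members and 0.14 over all genes, so the members were measured less precisely than the typical gene. An exact two-sided permutation of the group labels gave p of 0.171 or more for each tested member, while the smallest possible value is 0.0286.

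**Figure D1:**
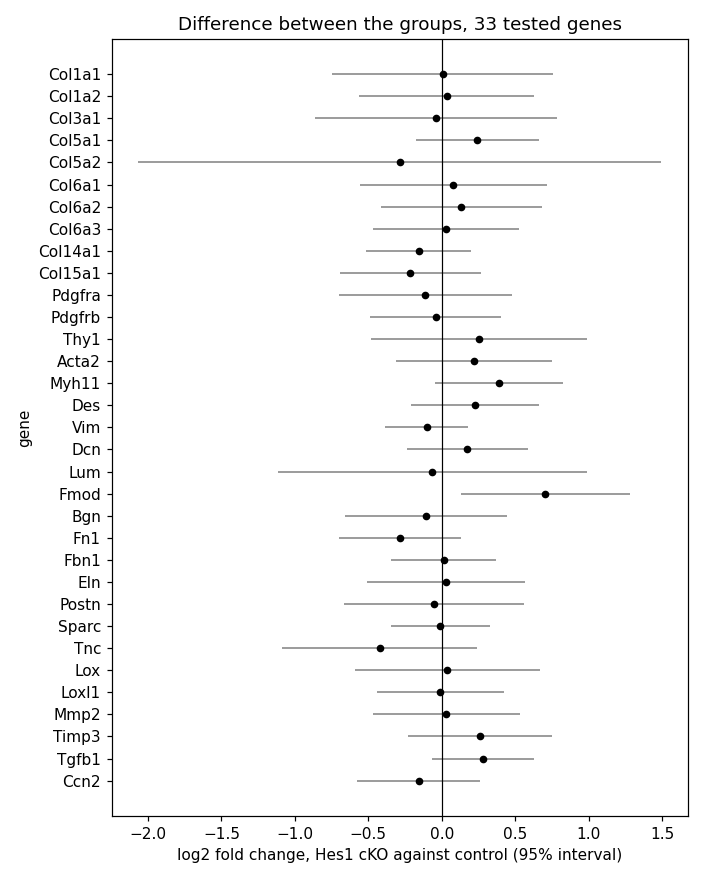
Log2 fold change of each of the 33 tested genes, Hes1 cKO (n = 3) against control (n = 4), by edgeR; points are estimates and lines their 95% intervals. Only the interval of Fmod leaves out 0, and that of Col5a2, from -2.07 to 1.49, is the widest.

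Library totals lay between 16973931 and 20420422 counts, and the 35 genes took 0.241% to 0.339% of them. Hes1 itself was at 17.2 to 19.8 CPM (counts scaled to the size of the library) in the knockout libraries and at 42.8 to 67.6 CPM in control, for a log2 fold change of -1.61, with SE 0.16 and an adjusted p of 0.00357 by edgeR, as the group names require. Xist, the RNA of the inactive X chromosome, was at 342 CPM in Hes1 cKO 3, 333 CPM in control 3 and 367 CPM in control 4 and did not exceed 0.371 CPM in the remaining 4; its level is used below as a property of the library. Genes of the adrenal cortex, which lies against the kidney, summed to 836 CPM in Hes1 cKO 3, 647 CPM in control 1, 163 CPM in control 2 and 41.3 CPM in Hes1 cKO 1, and to between 2.62 and 4.04 CPM in the other 3. Tubule genes (Lrp2, Slc34a1, Umod, Slc12a1, Slc12a3 and Aqp2) summed to 11430 to 11700 CPM in the knockout libraries and 11150 to 13570 CPM in control. Of the 6 genes, 5 had a log2 fold change below 0, and 0 were called. Aqp2, named after its values were seen, had a log2 fold change of -0.78 (unadjusted p 0.00637 and adjusted p 0.512 by edgeR). The fibroblast markers Pdgfra, Dcn, Col1a1, Col3a1 and Dpt were each present in every library.

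The members differed more between libraries of a group than between the groups, and Hes1 cKO 1 stood apart. That library held the highest value of 24 of the 33 tested members (72.7%), and of 13.2% of all tested genes. Hes1 cKO 3 held the lowest value of 12 members (36.4%, against 13.3% of all genes) and Hes1 cKO 2 of 11 (33.3%, against 15.5%). The median deviation of the members from the control mean, in log2(CPM + 1), was 0.42 in Hes1 cKO 1, -0.19 in Hes1 cKO 2 and -0.25 in Hes1 cKO 3. It was 0.22 in control 1 and between -0.12 and -0.08 in the other control libraries. Over all tested genes the median deviation lay between -0.0049 and 0.0039. The coefficient of variation (SD over mean) was larger in Hes1 cKO than in control for 27 of 33 members (81.8%), and for 42.4% of all genes. Its median over the members was 33.5% in Hes1 cKO and 18.0% in control. Neighbouring matrix genes share their cells of origin, so these counts describe 7 libraries and are not 33 separate observations.

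**Figure D2:**
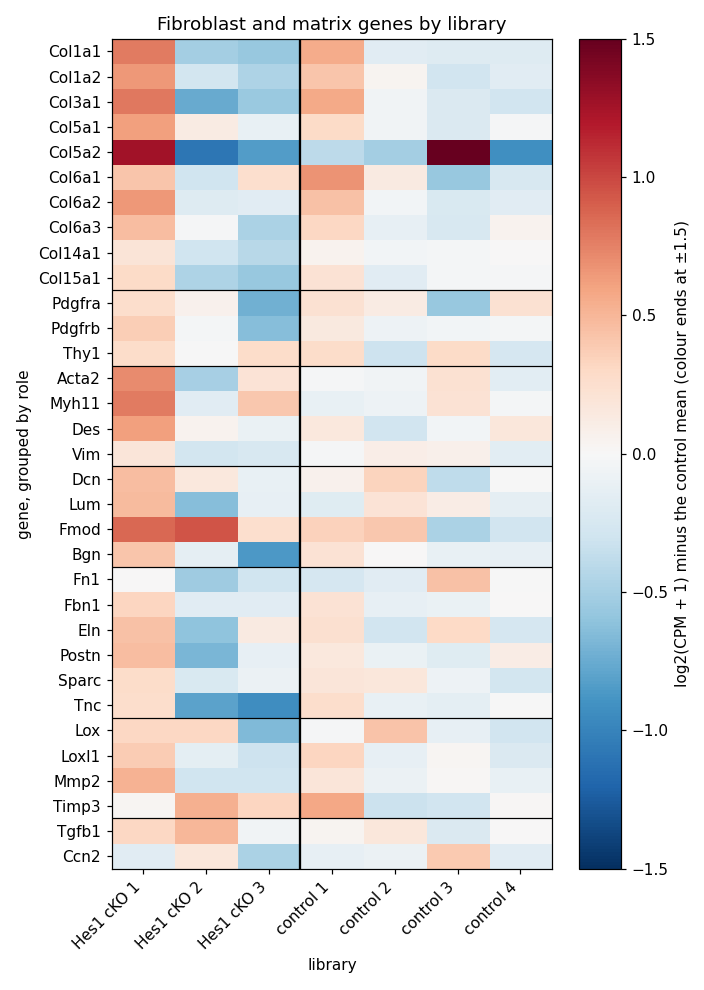
Difference of log2(CPM + 1) from the mean of the 4 control libraries, for 33 genes grouped by role (rows) in 7 libraries (columns; the thick line parts Hes1 cKO from control). Hes1 cKO 1 is above the control mean for most genes and Hes1 cKO 2 and 3 are mostly below it.

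**Figure D3:**
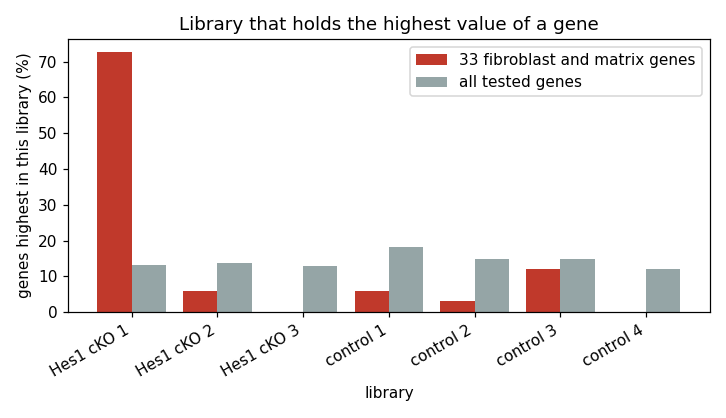
Share of genes whose highest value lies in each library, for the 33 tested fibroblast and matrix genes and for all 15615 tested genes. Hes1 cKO 1 holds 72.7% of the former and 13.2% of the latter.

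The group comparison depended on that library. Without Hes1 cKO 1, 27 of 33 members had a log2 fold change below 0, with a median of -0.26. Of the 33, 7 (21.2%) then stood at an unadjusted p under 0.05, against 5.34% of all genes: Col1a1, Col3a1, Col14a1, Col15a1, Vim, Bgn and Tnc, all lower in the remaining Hes1 cKO libraries. Their log2 fold changes then ran from -0.27 for Vim to -0.97 for Tnc. None of them was called, the smallest adjusted p by edgeR being 0.160, for Tnc. Hes1 cKO 1 held the highest value of 24 of the 33 members, so their estimates fall by construction when it is left out. The members also vary together, so these counts describe a choice of libraries and are not a test of the list. Without Hes1 cKO 3 the median was 0.18 and 25 members were above 0. Of the marker sums of other cell types, those of endothelium (444 CPM, against 263 to 436 CPM elsewhere) and urothelium (51.7 CPM, against 27.8 to 36.5 CPM) also peaked in Hes1 cKO 1. So did the sum of further smooth muscle genes (302 CPM, against at most 249.3 CPM). By small margins, so did those of further fibroblast genes (238 against at most 232 CPM) and the TGF-beta pathway (777 against at most 760 CPM). The same held for the basement membrane (2204 against at most 2198 CPM) and matrix proteases and inhibitors (848.6 against at most 846.3 CPM). The part of these cell types in the result was not tested. In whole-kidney RNA, fewer cells of a type and less RNA per cell cannot be told apart.

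The fibrillar collagens of the interstitium, types I and III, had their highest values in Hes1 cKO 1. Col1a1, which encodes the alpha 1 chain of type I collagen, was at 183, 74.0 and 71.3 CPM in the knockout libraries, and at 156, 94.5, 93.0 and 92.4 CPM in the controls. Its partner chain Col1a2 was at 173, 91.1 and 79.8 CPM and at 147, 114, 89.9 and 97.7 CPM. Col3a1, the single chain of type III collagen, was at 143, 47.9 and 55.3 CPM and at 122, 78.5, 69.97 and 66.7 CPM. For each of the 3 genes Hes1 cKO 1 was highest and control 1 next, and the remaining Hes1 cKO libraries of Col1a1 and Col3a1 lay below every control library. The log2 fold changes were 0.01 (SE 0.33) for Col1a1, 0.03 (SE 0.26) for Col1a2 and -0.04 (SE 0.37) for Col3a1. Their 95% intervals reached from -0.75 to 0.76, from -0.56 to 0.63 and from -0.86 to 0.78.

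The stretches before the RefSeq start sites of Col1a2 and Col3a1 are shown because these chains had their highest levels in the same libraries. That of Fmod is shown because it is the gene that came nearest to a call. RefSeq promoter windows (build GRCm38.p6) were matched for 20 of the 35 genes, in 23 windows, of which the 250 bases before the start site were searched on both strands for CCAAT (as CCAAT or ATTGG) and TATAAA (as TATAAA or TTTATA); capitals mark a match. The windows lie on the plus strand at chr6:4505368-4505617, chr1:45311288-45311537 and chr1:134037004-134037253. In the GENCODE M21 annotation Col1a2 already begins at chr6:4504814, so by that annotation its window lies inside the gene.
Col1a2: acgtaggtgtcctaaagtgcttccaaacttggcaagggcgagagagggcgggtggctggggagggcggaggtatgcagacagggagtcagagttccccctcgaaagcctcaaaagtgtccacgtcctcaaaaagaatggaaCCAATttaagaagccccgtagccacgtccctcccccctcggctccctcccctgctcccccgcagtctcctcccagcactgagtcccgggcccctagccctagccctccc
Col3a1: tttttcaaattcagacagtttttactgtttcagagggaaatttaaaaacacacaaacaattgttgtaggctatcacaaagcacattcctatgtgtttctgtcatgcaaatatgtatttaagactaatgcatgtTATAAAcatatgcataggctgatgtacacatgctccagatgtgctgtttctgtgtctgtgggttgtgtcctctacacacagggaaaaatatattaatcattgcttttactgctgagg
Fmod: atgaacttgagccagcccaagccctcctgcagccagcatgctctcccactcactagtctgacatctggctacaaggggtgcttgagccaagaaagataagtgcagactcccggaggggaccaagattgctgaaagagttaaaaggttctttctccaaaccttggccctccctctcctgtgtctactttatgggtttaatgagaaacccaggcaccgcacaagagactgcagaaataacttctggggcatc
The Col1a2 window holds 1 CCAAT, the Col3a1 window 1 TATAAA, and the Fmod window 0 of either. CCAAT was found in 3 of the 23 windows (of Col1a2, Timp1 and Vim) and TATAAA in 5 (of Col3a1, Postn, Tnc and Vim), while 33.8% and 12.4% of all 32851 windows of this length held them. No entry was matched for Col1a1, Col5a2, Col14a1, Pdgfrb, Thy1, Tagln, Myh11, Dcn, Lum, Fn1, Eln, Lox, Loxl1, Mmp2 and Ccn2.

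Col5a2, whose chain joins those of Col5a1 in type V collagen, a minor partner of type I fibrils, varied more than any other tested member, 8.38-fold between its lowest and highest library. It was at 41.4, 7.37 and 8.94 CPM in the knockout libraries, and at 12.5, 11.4, 61.7 and 8.35 CPM in the controls. Hes1 cKO 1 and control 3 thus stood apart from the rest: the lower of the pair lay 3.33-fold above the highest of the other 5 libraries. The log2 fold change was -0.29 with a 95% interval from -2.07 to 1.49, and the estimate was -1.53 without Hes1 cKO 1 and 0.84 without control 3. Col5a1 did not share the pattern, with 36.5, 25.5 and 21.6 CPM in the knockout libraries and 28.7, 22.5, 20.03 and 23.1 CPM in control. The ratio of Col5a2 to Col5a1 in CPM was 1.14 in Hes1 cKO 1 and 3.08 in control 3, and 0.289 to 0.509 in the other libraries.

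**Figure D4:**
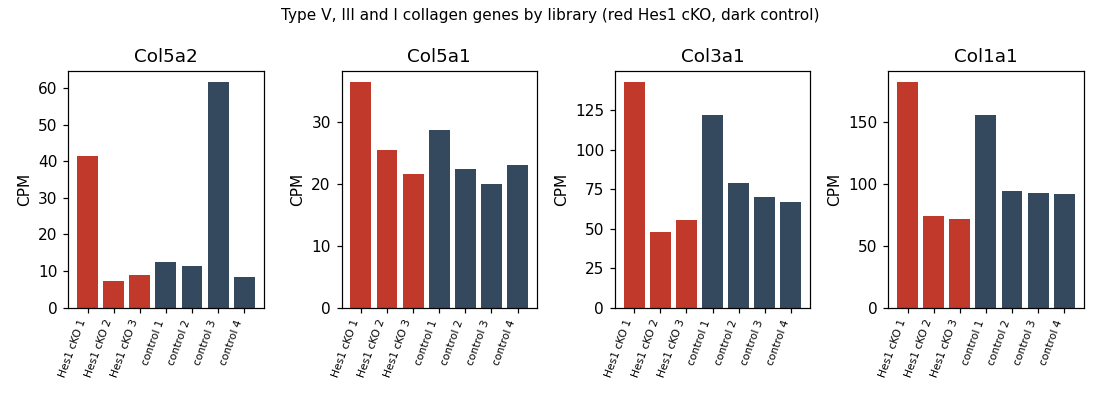
CPM of Col5a2, Col5a1, Col3a1 and Col1a1 in each library (red Hes1 cKO, dark control; 1 bar per library, each panel with its own scale from 0). Col5a2 is at 41.4 and 61.7 CPM in Hes1 cKO 1 and control 3 and at most 12.5 CPM elsewhere, while the other 3 genes are highest in Hes1 cKO 1 and control 1.

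The gene lies at chr1:45374321-45503282 on the minus strand (GENCODE M21, GRCm38), next to Col3a1, and 0 of its 9591 exon bases overlap another gene. Its neighbours Wdr75 and Slc40a1 did not follow it: Wdr75 ranged from 14.8 to 20.7 CPM and Slc40a1 from 86.0 to 118 CPM over the 7 libraries. Col3a1 was also highest in Hes1 cKO 1, at 143 CPM, but was not raised in control 3, at 69.97 CPM. Gm38211, a transcript model inside the Col5a2 locus, had 0 to 6 counts. The source of the 783 and 1125 Col5a2 counts in Hes1 cKO 1 and control 3 was not tested.

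The remaining collagens differed little. Col6a1, Col6a2 and Col6a3, the chains of the beaded filaments of type VI collagen, had log2 fold changes of 0.08, 0.13 and 0.03, and Col5a1 of 0.24 (95% interval from -0.18 to 0.66). Col14a1, which coats fibrils, was at 16.7, 11.6 and 10.5 CPM in the knockout libraries and 14.0 to 15.0 CPM in control. Col15a1, found near basement membranes, was at 22.1, 12.7 and 11.8 CPM and 15.8 to 21.1 CPM. In both, Hes1 cKO 1 lay above and the other Hes1 cKO libraries below all 4 controls, with log2 fold changes of -0.16 (SE 0.16) and -0.22 (SE 0.21).

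The receptors of fibroblasts and pericytes gave no difference beyond the spread of the libraries. Pdgfra, the fibroblast receptor for platelet-derived growth factors, was at 30.6, 26.4 and 14.9 CPM in the knockout libraries and at 29.8, 27.6, 16.7 and 29.8 CPM in the controls. It was low in Hes1 cKO 3 and control 3, both with high Xist, and not in control 4, which also has high Xist. Pdgfrb, the receptor of pericytes and mesangial cells, was at 66.6, 50.3 and 32.5 CPM in the knockout libraries and at 48.5 to 56.7 CPM in control. The log2 fold changes were -0.11 (SE 0.26) and -0.04 (SE 0.20). Thy1, a surface protein of fibroblasts and T cells, had only 19 to 38 counts per library, and its interval from -0.48 to 0.99 is correspondingly wide.

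The contractile genes of smooth muscle and myofibroblasts had positive fold changes that did not pass the test and changed with the Hes1 cKO library left out. Myh11, the smooth muscle myosin heavy chain, was at 93.3, 47.6 and 71.6 CPM in the knockout libraries, and at 49.8, 50.9, 62.7 and 53.0 CPM in the controls. Acta2, smooth muscle actin, was at 74.9, 31.9 and 52.5 CPM and at 44.7, 43.7, 53.2 and 40.7 CPM. For both genes Hes1 cKO 1 was the highest and Hes1 cKO 2 the lowest of all 7 libraries, so the control range lay inside that of Hes1 cKO. Myh11 had a log2 fold change of 0.39 (SE 0.19; unadjusted p 0.0734 and adjusted p 0.885 by edgeR), Acta2 of 0.22 (SE 0.24) and Des, the desmin of muscle and pericytes, of 0.22 (SE 0.19). Without Hes1 cKO 1 these log2 fold changes were 0.14 for Myh11, -0.12 for Acta2 and -0.04 for Des. Without Hes1 cKO 2 they were 0.61, 0.48 and 0.31. Myh11 and Acta2 were then at an unadjusted p under 0.05 by edgeR (6.06% of members, against 3.73% of all genes), and neither was called. Vim, the vimentin filament of mesenchymal cells, was at 50.1 to 69.2 CPM in the knockout libraries and 54.3 to 65.7 CPM in control, a log2 fold change of -0.10 (95% interval from -0.39 to 0.18).

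Tagln, an actin-binding protein of the same cells, was almost without counts, against its known place beside Acta2 and Myh11. It had 0, 3 and 5 counts in the knockout libraries and 1, 2, 2 and 1 in the controls, while Acta2 had 644 to 1416. Per length of exon, Acta2 averaged 22.2 RPKM (counts scaled to exon length and library size) over the 7 libraries, Myh11 8.06 RPKM and Tagln 0.0553 RPKM. Tagln lies at chr9:45929619-45936058 on the minus strand, and 1349 of its 1988 exon bases (67.9%) are shared with the antisense gene Gm48529 (1241 bases) and with Pcsk7. Gm48529 had 3 to 16 counts and Pcsk7 832 to 1047 counts per library. The part of this overlap in the low count was not tested, and Tagln is not read here as a measure of smooth muscle.

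Among the leucine-rich proteoglycans, which bind collagen fibrils and set their diameter, Fmod (fibromodulin) was the member nearest to a difference. It was at 29.6, 31.4 and 19.1 CPM in the knockout libraries, and at 20.4, 21.3, 11.1 and 12.8 CPM in the controls. The groups overlapped through Hes1 cKO 3, which lay below control 1 and control 2. The log2 fold change was 0.70 (SE 0.25; 95% interval from 0.13 to 1.28), with an unadjusted p of 0.0213 and an adjusted p of 0.717 by edgeR, and p was 0.171 by exact permutation.

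The libraries were then split by Xist level, a choice made after seeing values. Among the 4 libraries with low Xist, Fmod was at 29.6 and 31.4 CPM in the knockout libraries and at 20.4 and 21.3 CPM in control. Among the 3 with high Xist it was at 19.1 CPM in Hes1 cKO 3, the only knockout library of that level, against 11.1 CPM in control 3 and 12.8 CPM in control 4. The values did not overlap at either level, at the high level with 1 library against 2, which held for 1 of 33 members (3.03%) and for 13.5% of all tested genes. With the Xist level as a covariate the log2 fold change of Fmod was 0.60 (SE 0.099). The adjusted p was 0.0450 by edgeR, against 0.717 in the main fit without it. With the covariate Fmod was the 1 member called, against 0.423% of all genes. The fit without the 3 adrenal-rich libraries called it too (log2 fold change 1.36, adjusted p 0.00373 by edgeR, against 1.41% of all genes called), but there Hes1 cKO 1 and 2 with low Xist meet control 3 and 4 with high Xist, so that genotype and Xist level cannot be told apart.

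**Figure D5:**
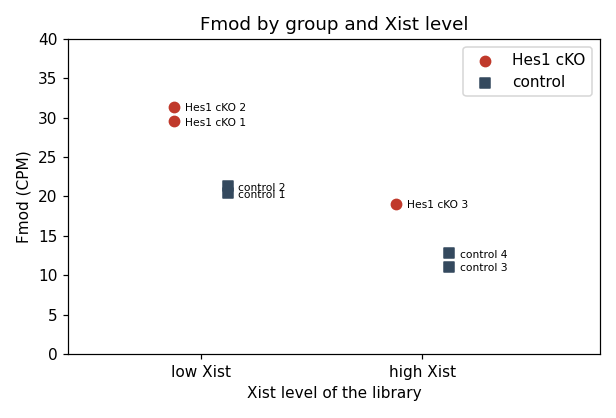
Fmod in CPM in each library, placed by Xist level and coloured by group (circles Hes1 cKO, squares control). The split by Xist level was chosen after seeing values. At low Xist the Hes1 cKO libraries are at 29.6 and 31.4 CPM above controls at 20.4 and 21.3 CPM, and at high Xist Hes1 cKO 3 is at 19.1 CPM above controls at 11.1 and 12.8 CPM.

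The other proteoglycans did not follow Fmod. Dcn (decorin) was at 28.9 to 43.6 CPM in the knockout libraries and 23.7 to 39.7 CPM in control, a log2 fold change of 0.17 (SE 0.18). Bgn (biglycan) was at 107, 72.6 and 43.4 CPM in the knockout libraries and at 73.3 to 93.2 CPM in control, a log2 fold change of -0.11 (SE 0.25). Hes1 cKO libraries thus held both the highest and the lowest Bgn values. Lum (lumican) had 9 to 40 counts per library, and its interval from -1.12 to 0.99 leaves changes of over 2-fold in one direction possible.

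The matrix glycoproteins ranged from Sparc, among the members with the most reads per length, to Postn, among those with the fewest. Sparc, a collagen-binding protein that endothelial cells and podocytes also make, averaged 111 RPKM over the 7 libraries and had a log2 fold change of -0.01 (SE 0.15). Eln, the elastin of arterial walls, was at 147, 71.2 and 119 CPM in the knockout libraries and at 128, 88.7, 133 and 90.7 CPM in the controls, with a log2 fold change of 0.03. Fbn1 (fibrillin) and Postn (periostin) had log2 fold changes of 0.01 and -0.05. For Postn the Hes1 cKO libraries at 11.1, 4.45 and 7.06 CPM reached above and below the control range of 6.75 to 8.83 CPM.

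Tnc and Fn1 had the largest negative estimates of the glycoproteins. Tnc (tenascin C), a protein of remodelling matrix, was at 15.6, 6.92 and 6.23 CPM in the knockout libraries and at 15.6, 11.8, 11.4 and 12.7 CPM in the controls. Fn1 (fibronectin), on which cells attach and collagen assembles, was at 58.2, 39.8 and 46.9 CPM and at 48.2, 51.2, 78.8 and 57.4 CPM. The log2 fold change was -0.42 (SE 0.30; adjusted p 0.942 by edgeR) for Tnc and -0.29 (SE 0.18; adjusted p 0.938) for Fn1. In both genes Hes1 cKO 1 was within or at the top of the control range and the other Hes1 cKO libraries lay below it.

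Of the matrix enzymes and inhibitors, Timp3, a matrix-bound inhibitor of metalloproteinases, was the most abundant member per length at 154 RPKM on average. It was at 1137, 1615 and 1401 CPM in the knockout libraries and at 1670, 898, 919 and 1136 CPM in the controls, a log2 fold change of 0.26 (SE 0.22). Control 1 had the highest value of all, so the groups overlapped, and 21.3% of the Timp3 exon bases are shared with Syn3. The cross-linking oxidases Lox and Loxl1 and the gelatinase Mmp2 had log2 fold changes of 0.04, -0.01 and 0.03.

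Timp1, the inhibitor that injured kidneys are known to make, was close to the limit of detection. It had 15, 5 and 5 counts in the knockout libraries and 3, 2, 3 and 1 in the controls. The counts did not overlap between the groups, but they were below the filter, so the gene was not tested in the main comparison. By exact permutation p was 0.0286, the smallest possible value, and the value in Hes1 cKO 1 is again the highest. That p requires ranges without overlap, which 7.01% of all tested genes had, so it is not separate support. The summed level of the tubular injury genes (Havcr1, Lcn2, Krt20, Spp1, Vcam1 and Sox9) was 408 to 664 CPM in the knockout libraries and 583 to 1101 CPM in control. Most of that sum was Spp1 alone, at 394 to 653 CPM in the knockout libraries and 573 to 1081 CPM in control. Of the 6 genes, 3 had a log2 fold change above 0 and 3 below, so the sum is no general measure of injury.

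The growth signals were measured at moderate depth. Tgfb1, the transforming growth factor that drives fibroblasts to make matrix, was at 17.6, 20.1 and 13.5 CPM in the knockout libraries and at 14.4, 15.8, 11.9 and 14.0 CPM in the controls. Ccn2, a matricellular target of that factor, was at 29.6, 37.9 and 23.8 CPM and at 30.6, 31.4, 44.4 and 29.6 CPM. Hes1 cKO 2 was highest for Tgfb1 and control 3 for Ccn2, and neither gene separated the groups. Log2 fold changes were 0.28 (SE 0.15; unadjusted p 0.101, adjusted p 0.927 by edgeR) and -0.16 (SE 0.19), and 23.2% of the exon bases of Ccn2 are shared with Gm15270.

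Per length of exon, the members covered a wide range: Timp3 (154 RPKM) and Sparc (111 RPKM) were followed by Acta2 (22.2), Col1a1 (16.6), Eln (13.7) and Bgn (12.7). At the low end stood Lum at 0.505, Timp1 at 0.295 and Tagln at 0.0553 RPKM, each as the mean of 7 libraries. The ranges over libraries of Col1a1 (10.9 to 27.8 RPKM), Eln (8.79 to 18.2) and Bgn (7.12 to 17.6) overlapped. The order of these 3 is that of their means and was not tested within libraries.

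The wider pathway also held no call. Of 69 further genes in 8 lists, 67 were tested (Mmp9 and Fap were below the filter), 0 were called, and 5 (7.46%) were at an unadjusted p under 0.05, against the 5.95% of all genes given above. The median log2 fold change of the 67 was 0.03. The lists and their counts of positive log2 fold changes were the TGF-beta pathway (10 of 15), PDGF ligands (2 of 4), collagen processing (4 of 12), matrix proteases and inhibitors (4 of 6 tested), basement membrane (2 of 9), further smooth muscle genes (7 of 8), pericyte and mesangial genes (3 of 5) and further fibroblast genes (5 of 8). Those with the highest mean per length in their list were Eng, Pdgfb, P4hb, Plau, Col4a1, Smtn, Ren1 and Cxcl12, with log2 fold changes from -0.14 for Ren1 to 0.11 for Smtn.

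Of the 5 genes at an unadjusted p under 0.05, 3 had ranges that did not overlap between the groups. The 5 were picked by p from the same values, so the missing overlap is not separate support. Over all tested genes, 7.01% had ranges without overlap. Ltbp3, which holds TGF-beta latent in the matrix, was at 91.5, 89.9 and 93.2 CPM in the knockout libraries and at 78.1, 72.8, 79.0 and 71.4 CPM in the controls. Pdgfa, a ligand of Pdgfra that epithelia secrete, was at 36.3, 37.2 and 36.5 CPM and at 23.6, 28.3, 31.2 and 31.7 CPM. Their log2 fold changes were 0.28 (SE 0.07; adjusted p 0.435 by edgeR) and 0.35 (SE 0.11; adjusted p 0.627), and neither passed the adjustment; 26.1% of the exon bases of Pdgfa are shared with 6330403L08Rik. Lmod1, which nucleates actin in smooth muscle, was at 10.2, 10.04 and 14.3 CPM and at 8.14, 6.51, 9.93 and 6.33 CPM, again without overlap (log2 fold change 0.57, adjusted p 0.693 by edgeR). Actg2, the enteric smooth muscle actin, had a log2 fold change of 1.29 (adjusted p 0.734 by edgeR) with its highest value, 6.24 CPM, in Hes1 cKO 1 and 0.688 to 2.08 CPM elsewhere.

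Markers of other cell types gave 0 calls as well; Emcn of endothelium and Upk1a of urothelium, named after their values were seen, stood at an unadjusted p under 0.05 (0.00643 and 0.0108 by edgeR, adjusted p 0.512 and 0.622). Summed levels were 263 to 444 CPM in the knockout libraries and 354 to 436 CPM in control for endothelium, where 0 of 6 genes had a log2 fold change above 0. They were 56.3 to 73.6 against 53.4 to 78.4 CPM for immune cells (2 of 5 tested genes above 0) and 257 to 282 against 213 to 293 CPM for adipocytes (3 of 4). For urothelium they were 29.3 to 51.7 against 27.8 to 34.4 CPM (5 of 5 above 0). In the adrenal cortex list 6 of 6 were above 0, and over all tested genes 7564 of 15615. Genes of a list share their cells of origin, so these counts are not separate observations. No gene of these lists was at 0 in all libraries.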

How the data were processed

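Total RNA of whole mouse kidneys was sequenced, and the authors deposited 2 tables of read counts per gene, whole numbers without normalization. STAR, FastQC, DESeq2 and the builds mm10 and GRCm38 are named in the submitters' processing notes, without versions; the counting program and its strand setting are unknown here, so sense and antisense genes that overlap may share reads. Columns named as mutant (3) or wild type (4) were used; 9 columns of the other table show no genotype and were not used. Nothing in the labels ties a column to 1 titled sample, so p-values measure the spread between these libraries. Pairs within a group differed by more than counting error (chi-square statistic over its degrees of freedom, 11.9 to 41.0).

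Genes were kept by filterByExpr of edgeR 4.0.16 (R 4.3.3, minimum count 10), leaving 15615 of 28971. TMM scaling, the quasi-likelihood test without covariates and Benjamini-Hochberg adjustment over all tested genes followed; the scripts were tested on simulated data. CPM are counts scaled to the TMM library size. Exact two-sided permutation tests used log2(CPM + 1). RPKM use GENCODE M21 exon lengths. Intervals are 95%. DESeq2 1.42.0 and limma 3.58.1 served as alternatives. Named are Hes1, all 35 members, and of 8 further lists each gene called or at an unadjusted p under 0.05 and the one highest per length. The values of 1 such gene are not reported here. Neighbours of Col5a2 and Tagln were chosen after their values were seen. Members and lists were chosen with earlier results of these data known. The split by Xist level was also chosen after seeing values.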

Additional observations from a re-analysis of the deposited data

Results flagged for a closer look

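In the 4 control libraries, 49 values (the tested members, Hes1 and the list sums) were searched for a library far from the other 3, by the gap to its nearest neighbour over the whole range, against Dixon's 95% critical value. Chance sets apart about 1 in 20 such groups, and 5 were found. Col1a1 in control 1 (gap ratio 0.967) was at 156 CPM against 92.4 to 94.5 CPM in the other controls. The summed immune cell markers were apart in the same library (0.879), at 78.4 CPM against 53.4 to 56.4 CPM. In control 3, Col5a2 (0.923) was at 61.7 CPM against 8.35 to 12.5 CPM, 5.40-fold above the median of the others. Ccn2 in that library (0.878) was at 44.4 CPM against 29.6 to 31.4 CPM, and Pdgfra (0.831) at 16.7 CPM against 27.6 to 29.8 CPM.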

How the results depend on the processing

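In all alternatives run Hes1 stayed called and lower in Hes1 cKO. No paired analysis was possible because the columns carry no replicate numbers of the titles, so the replicate block was not run. DESeq2's Wald test called 130 genes and put 2 members (Myh11 and Fmod) at an unadjusted p under 0.05; without a count filter these numbers were 102 and 3 (Timp1 added). With Xist as a covariate 1 member was called. Without the 3 adrenal-rich libraries, a choice made after seeing the data that leaves 2 against 2 libraries of unlike Xist level, 220 genes and 1 member were called, 6 members were at an unadjusted p under 0.05 and the median of the members was 0.24. Leaving out each library in turn gave 25 to 47 called genes, 0 to 7 members at an unadjusted p under 0.05 and medians from -0.26 to 0.18, with 0 members called. A direction was compared for the 10 members whose log2 fold change exceeded its SE. It reversed for Col5a1 (-0.0024 to 0.39 over the left-out libraries) and Des (-0.038 to 0.37), in both only without Hes1 cKO 1; the other 23 members had no direction to keep. Scaling by total counts or DESeq2 size factors moved the median of all genes by less than 0.1 and called 0 members. Depth limits Lum, Thy1, Tagln and Timp1, with at most 40 counts per library.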

Other observations

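The Col5a2 pattern was compared with that of other genes, after it had been seen. Over 14144 genes with a mean of at least 1 CPM, the lower of Hes1 cKO 1 and control 3 was divided by the highest of the other 5 libraries, with 0.2 CPM added to each. Col5a2 had the highest ratio, 3.29, followed by Kif11 (1.73), a mitotic motor, and B3gnt7 (1.70), a glycosyltransferase. The counts of Kif11 in these libraries were 44 and 43, against 5 to 22 in the others, so its ratio rests on few reads. This is a description of 7 libraries, and no test was made of a pattern chosen from them.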
